A study of Homo sapiens with 31 samples.

Results

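The chaperonin CCT (also called TRiC) is a barrel of stacked rings in the cytosol that closes around newly made proteins and folds them in cycles of ATP binding and hydrolysis. Actin and tubulin are its best known substrates. Each ring is built from 8 different but related subunits, which are made from separate genes and are all needed in the assembled complex. Here these 8 subunits were followed through ribosome profiling, RNA-seq and RNA pulldown of HEK293 T-REx, an established line from human embryonic kidney that carries a tetracycline repressor. They were chosen by transcript ID, 1 transcript per subunit, with the requirement that the deposited coding length match the protein. The members were TCP1 (alpha, ENST00000321394), CCT2 (beta, ENST00000299300), CCT3 (gamma, ENST00000295688), CCT4 (delta, ENST00000394440), CCT5 (epsilon, ENST00000280326), CCT6A (zeta, ENST00000275603), CCT7 (eta, ENST00000258091) and CCT8 (theta, ENST00000286788). All 8 were found, among 35499 loci with counts, and all 8 passed the filter on low counts in each fit. Their counted lengths ran from 522 codons (CCT6A) to 547 codons (TCP1), each 9 less than the protein in amino acids.

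The study asked how eIF4A1, an RNA helicase that opens mRNA leaders for initiation, works with the RNA-binding protein LARP1 when the kinase complex mTORC1 is inhibited. EIF4A2 encodes its close paralog. Ribosome profiling, which sequences the mRNA fragments that ribosomes protect (footprints), covered 3 genotypes: naive, EIF4A1 KO and EIF4A2 KO, where KO is knockout. Each genotype had 2 DMSO libraries, 1 library with 1 µM and 1 with 10 µM of the mTOR kinase inhibitor PP242, given for 30 min. RNA-seq, with no treatment labelled, had 2 libraries of naive cells and 2 of EIF4A1 KO cells. Pulldown used cells expressing eIF4A1 or eIF4A2 fused to a streptavidin-binding peptide (SBP-eIF4A1, SBP-eIF4A2), and for each protein 2 pulldowns and 2 inputs were sequenced. A second pulldown experiment in SBP-eIF4A1 cells followed 72 h of siRNA. It had 2 inputs and 2 pulldowns after control siRNA (siControl), and 2 inputs and 1 pulldown for LARP1 siRNA (siLARP1). The labels do not say whether a KO line is 1 clone, what drives the tagged proteins, or whether the 2 libraries of a group came from separate cultures. P-values therefore measure only the spread between these libraries, which may be technical. No pulldown from cells without a tagged protein was analysed here. The knockouts and the LARP1 knockdown rest on the labels, because the transcript IDs of EIF4A1, EIF4A2 and LARP1 are not paired with symbols in the files used here.

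Counts summed over 1 transcript per locus were 2515013 to 6420287 in the profiling libraries, 19706862 to 21631521 in RNA-seq and 11890148 to 17642738 in the pulldown and input libraries. A single subunit had at least 1501 counts in every profiling library and at least 1427 in every pulldown or input library, so counting error was low for all members. Levels are given as CPM, counts scaled to a common library size with TMM factors, which take most transcripts as unchanged. A uniform change of all mRNAs would not be seen. Since these are bulk libraries, fewer cells with an mRNA and less of it per cell cannot be told apart. RefSeq (GRCh38.p14) lists 16 pseudogenes of 7 members, all but CCT2, and 2 of the 16, both of CCT6A, are transcribed. The genes of 4 members (TCP1, CCT3, CCT4 and CCT6A) overlap another gene. How the authors' counting treated such reads is not given in the sources used here, so small differences for these members are uncertain.

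The first bases of the subunit mRNAs are shown because mRNAs whose translation depends most on mTORC1, and which LARP1 binds, begin with a C followed by a run of pyrimidines (the terminal oligopyrimidine or TOP motif). The table of RefSeq starts matched 7 of 8 members by symbol, all but CCT6A. For CCT2 a further start, 430 bases inside the outer one, begins with G and is not shown. For CCT5 the only entry lay 616 bases inside the gene's outermost start and is not shown. Each window is written 5′ to 3′ on the strand of the gene, from 10 bases before the annotated start to 20 bases from it on. Capitals mark the annotated start base and, where that base is a pyrimidine, the unbroken run of C and T from it. The windows lie at chr6:159789583-159789612 (TCP1, minus strand), chr12:69585449-69585478 (CCT2, plus), chr1:156338273-156338302 (CCT3, minus), chr2:61888652-61888681 (CCT4 outer start, minus), chr2:61888637-61888666 (CCT4 inner start, minus), chr2:73234298-73234327 (CCT7, plus) and chr21:29073629-29073658 (CCT8, minus), all in GRCh38.p14.
TCP1: tgtgttacccAgtagctcctgggacatcgc
CCT2: ggcttccttcAgtccgctggtcccgagcac
CCT3: gggttgaggtGtaagccctgaggaggcagc
CCT4 outer start: agcgccgcgcGgcaaggaaggcccccttct
CCT4 inner start: ggaaggccccCTTCTCCgcctccgcctcct
CCT7: tgcgcgaggcAttgtgggttgctgggcggc
CCT8: tgtgcgtgctCCTCgcttcctccgcggtct
A C at the annotated start with at least 5 pyrimidines in a row, searched on the strand of the gene only, was found at 1 of the 9 starts listed for the members. That start is the inner one of CCT4, 15 bases from the outer one, with a run of 7. Of all 35116 starts in the table, 4.07% had the pattern. CCT8 began with a C and a run of 4, below that length. Annotated starts can differ by several bases from those used in a cell, so a missing run says only that these letters are not at these positions.

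All 8 subunits were abundant mRNAs. Divided by counted length, their levels lay between the 97.5th and the 99.3rd percentile of transcripts in RNA-seq, and between the 96.8th and the 99.2nd percentile in ribosome profiling. In every RNA-seq and profiling library CCT5, which can form rings by itself in vitro, was highest per length and CCT6A lowest. CCT6A has a paralog, CCT6B, known from testis, which was not analysed here. The 2 naive RNA-seq libraries held 261 and 257 CPM per 100 codons of CCT5 and 74.5 and 75.9 of CCT6A. In between, the order of RNA levels per length in naive cells was CCT3 (230 and 232 CPM per 100 codons), CCT8 (224 and 226), TCP1 (174 and 171), CCT7 (168 and 165), CCT2 (144 and 144) and CCT4 (101 and 106). No neighbours in this order overlapped between the 2 libraries.

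The footprints of the 8 subunits were closer to each other than their mRNAs. The 2 naive DMSO profiling libraries held 272 and 270 CPM per 100 codons of CCT5 and 129 and 125 of CCT6A, a ratio of 2.10 and 2.17. In the naive RNA-seq libraries that ratio was 3.50 and 3.38. The coefficient of variation across the 8 subunits was 22.7% and 23.7% for naive DMSO footprints and 37.5% and 36.8% for naive RNA. CCT8 (243 and 230 CPM per 100 codons) and CCT3 (229 and 241) overlapped each other in footprint level. Below them, without overlap, came CCT2 (226 and 217), CCT7 (197 and 205), CCT4 (180 and 182), TCP1 (163 and 151) and CCT6A. The plot of levels by subunit shows the narrower footprint range.

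**Figure D1:**
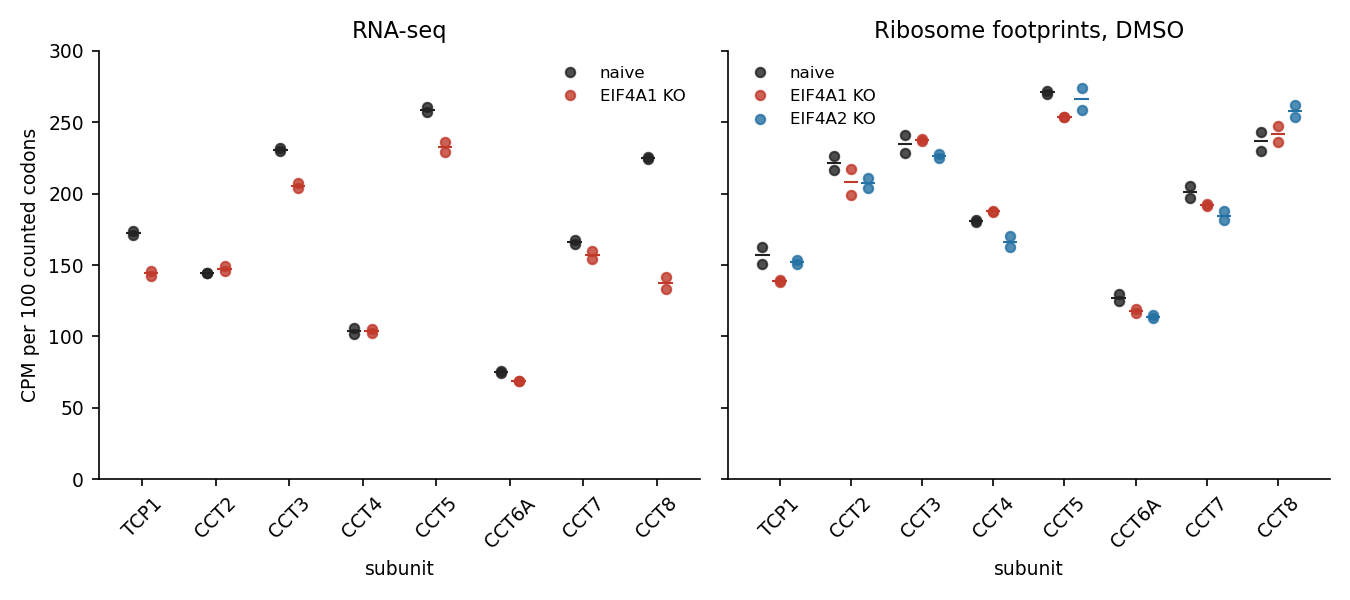
Levels of the 8 subunits in CPM per 100 counted codons (vertical axis, linear from 0), in RNA-seq (left) and in DMSO ribosome footprints (right); points are libraries, 2 per genotype, and short lines their mean. CCT5 is highest and CCT6A lowest in each library, and CCT8 is lower in EIF4A1 KO than in naive cells in RNA, while its footprint points overlap.

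The ratio of footprints to RNA, the translation efficiency, differed between subunits in naive cells. It is given as log2 of mean footprint CPM over mean RNA CPM, with the median over 20236 transcripts set to 0, and since the assays differ in library method it is only ranked here. CCT4 (0.79, 83.1st percentile), CCT6A (0.74) and CCT2 (0.60), the subunits with the least RNA per length, had the highest ratios. CCT7 stood at 0.26, CCT8 at 0.06, CCT5 at 0.05 and CCT3 at 0.01. TCP1, which gave the family its name, was lowest at -0.15, the 42.6th percentile. The ratio and the RNA level share the RNA libraries, so their order is not independent.

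Loss of EIF4A1 was first compared at the RNA level, where CCT8 stood apart from the other subunits. CCT8 RNA was at 1207 and 1217 CPM in naive cells and at 719 and 762 in EIF4A1 KO cells. The groups were far from overlapping, with a log2 change of -0.71 ± 0.03 (SE; adjusted p = 1.18e-18, edgeR's quasi-likelihood test with Benjamini-Hochberg adjustment, two-sided, as throughout), or 0.611 of the naive level. TCP1 was next, at 950 and 935 CPM in naive and 778 and 799 in KO cells (log2 change -0.26 ± 0.03, adjusted p = 1.31e-08). Smaller decreases passed the test for CCT3 (-0.17), CCT5 (-0.15), CCT6A (-0.13) and CCT7 (-0.08, adjusted p = 0.0242). CCT4 (0.00 ± 0.03) and CCT2 (0.03 ± 0.03) did not pass. In all, 6 of 8 subunits fell and 0 rose, against 18.4% of 25744 transcripts called lower and 18.1% called higher. The median log2 change was -0.14 over the 8 subunits and -0.00 over all transcripts tested, and among 391 other transcripts of the same length range 25.3% were called lower. The quartiles over all transcripts were -0.26 and 0.24. Abundant mRNAs such as these are called at smaller changes than most. The shares over all transcripts, here and in the comparisons below, are not matched for abundance. The call of CCT7 was lost with the DESeq2 Wald test, without a filter on low counts, without naive replicate 1 and without EIF4A1 KO replicate 1 (adjusted p 0.0102 to 0.370 over 11 alternatives). That of CCT6A was lost without EIF4A1 KO replicate 1, where 4 of 8 remained called.

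The same contrast was then measured in footprints, where 1 subunit passed the test. CCT8 footprints were at 1312 and 1239 CPM in naive and 1271 and 1333 in EIF4A1 KO cells under DMSO, so the groups overlapped (log2 change 0.03 ± 0.05, adjusted p = 0.742). TCP1, at 890 and 825 CPM in naive and 754 and 763 in KO cells, was the single subunit called, with a log2 change of -0.18 ± 0.06 (adjusted p = 0.0116). Thus 1 of 8 was lower and 0 higher, against 11.9% of 19844 transcripts called lower and 10.9% higher. The other log2 changes ran from -0.11 (CCT6A) to 0.05 (CCT4). The TCP1 call was lost with DESeq2 (adjusted p = 0.0620) and on leaving out naive DMSO replicate 1 or either EIF4A1 KO DMSO library, with adjusted p between 0.00229 and 0.165 over all 11 alternatives.

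EIF4A2 KO cells were compared in the same way. No subunit was called against naive cells, by edgeR or by DESeq2, while 4.31% of transcripts were called lower and 3.73% higher. At an unadjusted p under 0.05, where 3975 of 19844 transcripts lay, there were 4 of 8, namely CCT6A (-0.16 ± 0.05), CCT7 (-0.12), CCT4 (-0.12) and CCT8 (0.12 ± 0.05), and 7 of 8 changes were below 0. The direct comparison of the knockouts called CCT4 alone, at 993 and 996 CPM without EIF4A1 and 862 and 901 without EIF4A2. Its log2 difference was 0.17 ± 0.05 (adjusted p = 0.0110), against 11% of transcripts called higher and 11.6% lower. The CCT4 call was lost without either EIF4A1 KO DMSO library or without EIF4A2 KO DMSO replicate 1 (adjusted p 0.0624 to 0.138 in those 3), and without a filter on low counts TCP1 was called too. Both comparisons with naive cells share the naive libraries.

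The change of translation efficiency in EIF4A1 KO cells, tested as an interaction of assay and genotype, was large for CCT8. Its ratio of footprints to RNA rose by 0.73 ± 0.06 on the log2 scale, 1.66-fold (adjusted p = 2.73e-18), and it stayed called in all 14 alternatives, with changes of 0.64 to 0.78. This rise uses the same libraries as the RNA change of -0.71 and the footprint change of 0.03 given above. It is therefore not a separate result. In rank, CCT8 moved from the 53.0th to the 82.8th percentile of translation efficiency, beside CCT4 and CCT6A. CCT3 also passed (0.17 ± 0.06, adjusted p = 0.0366), but its call was lost on leaving out any of 7 of the 8 libraries, all but RNA-seq naive replicate 1 (adjusted p 0.0133 to 0.446 over 14 alternatives). For CCT2 the value was -0.13 ± 0.06 (adjusted p = 0.165). It was called lower in 2 of the 14 alternatives, without naive DMSO replicate 2 (-0.21, adjusted p = 0.0116) and without EIF4A1 KO DMSO replicate 2 (-0.24, adjusted p = 0.00733), and its adjusted p reached 0.430 in the others. The other 5 lay between 0.01 and 0.07. With 2 of 8 called higher and 0 lower, the background was 3.74% of 25458 transcripts higher and 5.74% lower. The RNA-seq and profiling libraries were separate preparations, and whether the cells were grown side by side is not stated.

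**Figure D2:**
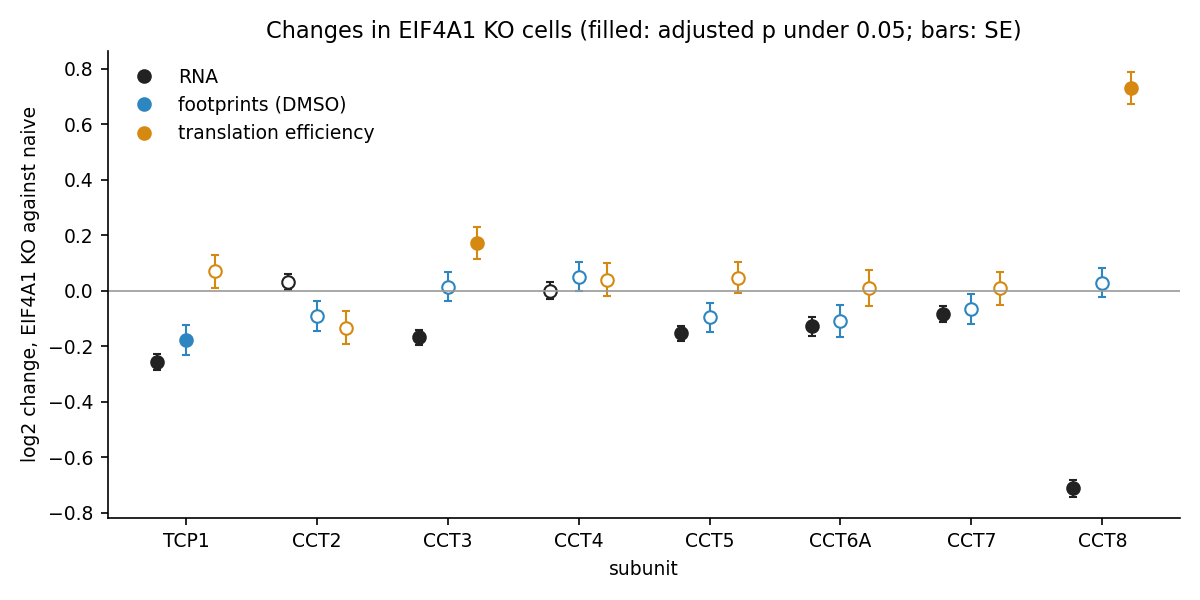
Log2 change in EIF4A1 KO against naive cells (vertical axis) for each subunit, in RNA, in DMSO footprints and in translation efficiency; bars are SE and filled points have an adjusted p under 0.05. CCT8 has an RNA change of -0.71 and a translation efficiency change of 0.73, outside the range of the other 7 subunits.

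Footprints of several subunits were lower with PP242 in all 3 genotypes, with called log2 changes between -0.17 and -0.36. In naive cells CCT3 was at 1225 and 1292 CPM with DMSO, 997 at 1 µM and 1100 at 10 µM. CCT2 was at 1191 and 1140 with DMSO, 928 at 1 µM and 1054 at 10 µM. For both, each PP242 library lay below both DMSO libraries, and the drop was deeper at 1 µM. With PP242 at either dose against DMSO, the log2 change was -0.27 ± 0.06 for CCT3 (adjusted p = 0.000819) and -0.24 ± 0.06 for CCT2. CCT6A, at 676 and 650 CPM with DMSO, then 561 and 585, also passed (-0.21 ± 0.06). So did CCT7, at 1052 and 1095, then 925 and 982 (-0.17 ± 0.06, adjusted p = 0.0467). That makes 4 of 8 lower, against 5.71% of 20505 transcripts lower and 3.68% higher.

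TCP1 and CCT5 did not follow. In naive cells TCP1 had 890 and 825 CPM with DMSO, 843 at 1 µM and 890 at 10 µM, and CCT5 had 1448 and 1435, then 1403 and 1449. Their PP242 and DMSO values overlapped (log2 changes 0.01 ± 0.06 and -0.02 ± 0.06). CCT4 (-0.10 ± 0.06) and CCT8 (-0.12 ± 0.06) lay between and did not pass. Without any test, both PP242 libraries lay below both DMSO libraries for 6 of 8 subunits, all but TCP1 and CCT5, as they did for 25% of all transcripts.

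In EIF4A1 KO cells CCT2 changed most. It was at 1047 and 1142 CPM with DMSO, 860 at 1 µM and 843 at 10 µM (log2 change -0.36 ± 0.06, adjusted p = 1.47e-05). CCT8, at 1271 and 1333 with DMSO, was at 1084 and 1030 with the 2 doses (-0.30 ± 0.06), again without overlap. CCT6A (-0.32) and CCT3 (-0.26) were called too, so 4 of 8 were lower, against 3.7% of transcripts lower and 2.32% higher. TCP1 (-0.17 ± 0.06, adjusted p = 0.0986), CCT7 (-0.14), CCT4 (-0.14) and CCT5 (-0.09) did not pass. All 8 subunits, TCP1 and CCT5 included, had both PP242 libraries below both DMSO libraries in this genotype, as did 23.8% of transcripts.

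In EIF4A2 KO cells 5 of 8 were lower, against 7.11% of transcripts lower and 4.59% higher. CCT3 was at 1206 and 1219 CPM with DMSO, 961 at 1 µM and 956 at 10 µM (log2 change -0.34 ± 0.06, adjusted p = 8.03e-06). CCT2 (-0.34), CCT6A (-0.29), CCT7 (-0.21) and CCT8 (-0.17) also passed. TCP1 (-0.03), CCT5 (-0.04) and CCT4 (-0.13) did not, and TCP1 and CCT5 were again the 2 whose PP242 and DMSO libraries overlapped, where 25.2% of all transcripts had both PP242 libraries below both DMSO libraries. With either dose against DMSO, CCT2, CCT3 and CCT6A were thus called in all 3 genotypes, and TCP1, CCT4 and CCT5 in none. How many of all transcripts were called in all 3 was not counted. How these calls depend on the dose coding and on single libraries is given below. Over the 8 subunits the median change was -0.14 in naive cells, and -0.21 and -0.19 without EIF4A1 and without EIF4A2, beside 0.00, 0.01 and 0.01 over all transcripts.

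**Figure D3:**
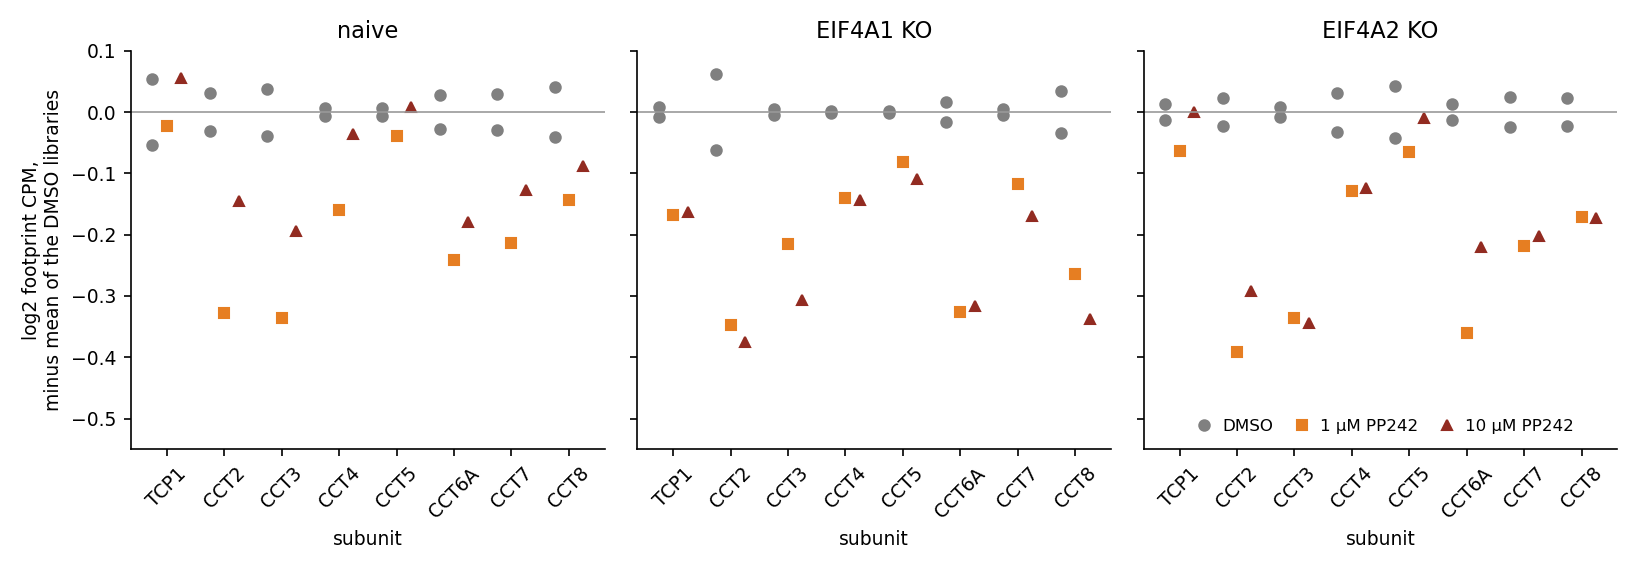
Footprint level of each subunit as log2 CPM minus the mean of the 2 DMSO libraries of the same genotype (vertical axis), in naive, EIF4A1 KO and EIF4A2 KO cells; each point is 1 library. All subunits but TCP1 and CCT5 lie below the DMSO libraries at both doses in all 3 panels. TCP1 and CCT5 overlap the DMSO libraries in naive and EIF4A2 KO cells and lie below them in EIF4A1 KO cells. Of all transcripts, 25% (naive), 23.8% (EIF4A1 KO) and 25.2% (EIF4A2 KO) lie below at both doses.

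The genotypes were then compared with each other in their response. The largest differences between EIF4A1 KO and naive cells were -0.18 ± 0.08 for CCT8 and -0.18 ± 0.08 for TCP1 (adjusted p = 0.194 and 0.232), and both had an unadjusted p under 0.05, as did 18.6% of all transcripts. No subunit was called by edgeR or DESeq2, with 3.61% of transcripts higher and 2.45% lower. Between EIF4A2 KO and naive cells all 8 differences were below 0 but small, from -0.10 to -0.02, with 0 called by either tool and 0 at an unadjusted p under 0.05 (0.00488% of transcripts called higher, 0.0634% lower, and 6.41% at that unadjusted p). Between EIF4A1 KO and EIF4A2 KO cells they ran from -0.13 (TCP1) to 0.08 (CCT3), again with 0 called by either tool and 0 at an unadjusted p under 0.05 (3.7% higher, 2.52% lower, 19.0% at that unadjusted p). With SEs of 0.08 to 0.09, differences of that size would not be resolved.

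The PP242 calls depend on how the 2 doses are entered and, for the subunits named here, on single libraries in each genotype. When the doses were instead scored as equal steps (DMSO 0, 1 µM 1, 10 µM 2), 0 of 8 subunits were called in any genotype (smallest adjusted p 0.454, 0.306 and 0.167), although 7, 8 and 8 of the 8 slopes were below 0. At an unadjusted p under 0.05 there were 0, 4 and 2, against 13.6%, 9.75% and 14.7% of all transcripts. That score called 289, 0 and 448 of all transcripts. Without the naive library at 1 µM, 0 of 8 were called in naive cells, and without naive DMSO replicate 1 only CCT3. The call of CCT7 in naive cells was also lost without naive DMSO replicate 2, with DESeq2-type size factors (adjusted p = 0.0554) and with all distinct transcripts (adjusted p = 0.0720). In EIF4A1 KO cells the call of CCT3 was lost without the 10 µM library. In EIF4A2 KO cells, leaving out the 1 µM library kept CCT2 and CCT3, leaving out DMSO replicate 1 ended the calls of CCT7 and CCT8, and leaving out DMSO replicate 2 or the 10 µM library ended that of CCT8.

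The spread between subunits was wider in each PP242 library than in either DMSO library of the same genotype. The coefficient of variation of footprints per length with DMSO in naive cells, given above, was 22.7% and 23.7%, and it was 25.4% at 1 µM and 24.3% at 10 µM. Without EIF4A2 it was 26.3% and 27.5% with DMSO, then 30.1% at the lower and 29.0% at the higher dose. Without EIF4A1 it was 24.76% and 24.96% with DMSO and 25.80% at the higher dose, with the library at the lower dose above these. Summed over the 8 subunits, footprints fell from 8748 and 8640 CPM with DMSO to 7670 and 8196 in naive cells. They fell from 8320 and 8504 to 7329 and 7137 without EIF4A1, and from 8334 and 8468 to 7290 and 7492 without EIF4A2. These sums are descriptions without a test.

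Pulldown of tagged eIF4A1 recovered most subunit mRNAs less than other mRNAs, while TCP1 did not differ from its input by the test. TCP1 was at 732 and 765 CPM in the inputs and 718 and 748 in the pulldowns of SBP-eIF4A1, which overlap (log2 ratio of pulldown to input -0.03 ± 0.05, adjusted p = 0.655). CCT5, the most abundant subunit in the inputs, was at 1000 and 1036 CPM in the inputs and 295 and 330 in the pulldowns (-1.70 ± 0.06, adjusted p = 4.95e-13). CCT6A, the least abundant, was at 332 and 329 in the inputs and 137 and 136 in the pulldowns (-1.28 ± 0.06). For both, the groups were far apart. All 6 subunits other than TCP1 and CCT5 had log2 ratios from -1.19 (CCT3) to -1.62 (CCT7), and all were called. In all 7 of 8 were lower and 0 higher, in a comparison where 26.7% of 26600 transcripts were called lower and 28.7% higher. The median over the 8 was -1.28, against 0.04 over all transcripts and -0.08 over 396 other transcripts of the same length range. Of those 396, 35.6% were called lower and 28.0% higher. As 14727 of the 26600 were called, the TMM premise of mostly unchanged transcripts was not met. A ratio near 0 is thus only relative to other transcripts. Across transcripts, log2 ratio and input level had a Spearman rho of -0.19. Both values use the same input libraries, here and for SBP-eIF4A2 below, so they are not independent. How far abundance bears on the subunits' ratios was not tested.

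With SBP-eIF4A2 all 8 subunits were lower in the pulldown, against 30% of transcripts lower and 29.8% higher. Among 396 other transcripts of the same length range, 37.6% were called lower and 33.1% higher. TCP1 again had the highest ratio, at 679 and 668 CPM in the inputs and 384 and 365 in the pulldowns (-0.85 ± 0.05, adjusted p = 3.86e-10). The other 7 ran from -1.63 (CCT3) to -2.11 (CCT5), with a median over the 8 of -1.83 (Spearman rho of ratio and input level across transcripts -0.26). TCP1 was also the subunit with the highest level per length in the pulldowns of both proteins, where CCT5 held that place in the inputs. Across the 8 subunits the coefficient of variation per length was 59.0% and 60.1% in the SBP-eIF4A1 pulldowns, 42.2% and 43.1% in those of SBP-eIF4A2, and 33.3% to 35.0% in the 4 inputs.

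Without siRNA, every subunit had a higher ratio with SBP-eIF4A1 than with SBP-eIF4A2. The difference of log2 ratios was 0.82 ± 0.07 for TCP1 (adjusted p = 1.52e-06), 0.63 ± 0.08 for CCT6A and 0.59 ± 0.08 for CCT4. It was 0.53 for CCT8, 0.50 for CCT2, 0.44 for CCT3, 0.41 for CCT5 and 0.32 ± 0.08 for CCT7 (adjusted p = 0.00904). All 8 were called higher and 0 lower, against 10.4% of transcripts higher and 5.3% lower, and the medians were 0.52 over the subunits and 0.03 over all transcripts. The CCT7 call was lost without SBP-eIF4A1 input replicate 2 (adjusted p = 0.0522) or without SBP-eIF4A2 input replicate 2 (adjusted p = 0.0669), within a range of 5.99e-06 to 0.0669 over 14 alternatives. Since no pulldown without a tagged protein was used here, RNA bound to the beads themselves enters each ratio. The tagged protein and the cell line differ together in this comparison and cannot be told apart. Whether the pulldowns of the 2 proteins were done side by side is not stated. After control siRNA, in a separate experiment, the median SBP-eIF4A1 ratio over the 8 was -2.00, below the -1.83 of SBP-eIF4A2. The SBP-eIF4A1 ratios of the 2 experiments differed by a median of -0.84.

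The inputs of the 2 tagged lines differed for CCT8, a comparison added after its values had been seen. CCT8 was at 582 and 613 CPM in the inputs of SBP-eIF4A1 cells and 882 and 903 in those of SBP-eIF4A2 cells (log2 difference -0.58 ± 0.06, adjusted p = 3.92e-06). CCT2 was also lower (-0.21 ± 0.06, adjusted p = 0.0147), a call lost on leaving out any of the 4 input libraries. The other 6 ran from -0.01 to 0.15, with TCP1 at 0.15 (adjusted p = 0.0503). With 2 of 8 lower and 0 higher, 9.69% of all transcripts were called lower and 8.77% higher. CCT8 was called in every alternative, while fitting the 4 input libraries alone called 4 of 8. The share of all transcripts called in that smaller fit is not given here, so its count has no background.

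**Figure D4:**
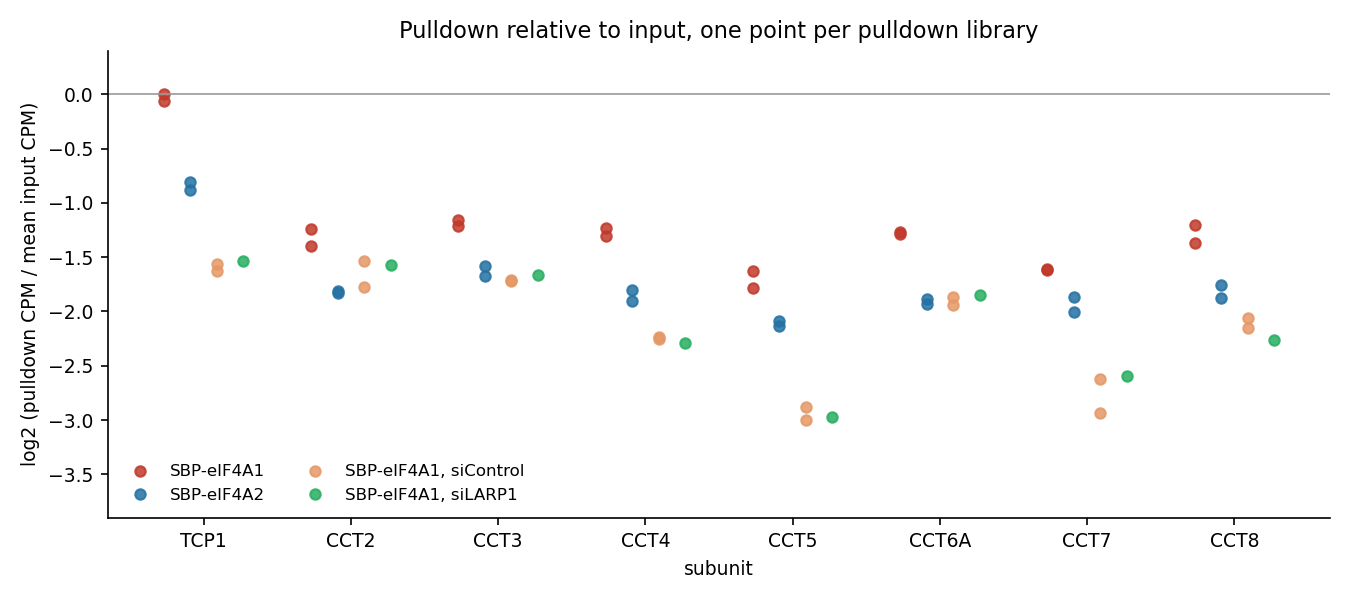
Log2 ratio of CPM in each pulldown library to the mean of its inputs (vertical axis) for each subunit and tagged protein; each point is 1 pulldown library. TCP1 lies near 0 with SBP-eIF4A1 and at -0.81 or below in all other pulldowns, and the other subunits lie at -1.16 or below in every pulldown.

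The siRNA experiment repeated the SBP-eIF4A1 pulldown after control siRNA, and there TCP1 was lower in the pulldown like the other subunits. It was at 833 and 945 CPM in the siControl inputs and 286 and 301 in the pulldowns (log2 ratio -1.60 ± 0.18, adjusted p = 7.54e-10). CCT5 fell from 1434 and 1611 CPM to 207 and 190 (-2.94 ± 0.19) and CCT7 from 926 and 941 to 152 and 122 (-2.77 ± 0.19). All 8 subunits were lower in the pulldown and 0 higher, with a median of -2.00, against 24.1% of 26707 transcripts lower and 25.2% higher. In the 3 pulldowns of this experiment CCT3 had the highest level per length.

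The ratios after control siRNA were lower than those without siRNA. TCP1 differed most, by -1.51 ± 0.14 (adjusted p = 5.40e-07), followed by CCT5 (-1.17 ± 0.14) and CCT7 (-1.09 ± 0.15). CCT4 (-0.92), CCT8 (-0.76), CCT6A (-0.56) and CCT3 (-0.47) also passed, and CCT2 did not (-0.28 ± 0.16, adjusted p = 0.166). That gave 7 of 8 lower and 0 higher, against 23.8% of 26115 transcripts lower and 26.4% higher. The call of CCT3 was lost without replicate 1 of the input without siRNA (adjusted p 0.00176 to 0.0604 over 14 alternatives). The siRNA and the experiment differ together between these libraries and cannot be told apart.

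After LARP1 siRNA all 8 subunits were lower in the input than after control siRNA, but none passed the test. CCT7 was at 926 and 941 CPM in the siControl inputs and 735 and 631 in the siLARP1 inputs (log2 change -0.45 ± 0.18, adjusted p = 0.261). CCT3 was at 1134 and 1201, then 932 and 792 (-0.44 ± 0.17), and CCT2 at 907 and 1052, then 628 and 829 (-0.43 ± 0.18). CCT8, at 882 and 976, then 679 and 958, was the single subunit whose groups overlapped (-0.18 ± 0.18). The 7 others had both siLARP1 inputs below both siControl inputs, as did 21.6% of transcripts. The median was -0.30 over the 8 subunits and 0.01 over all transcripts. By edgeR 0 of 8 were called, with 0.318% of transcripts higher and 0.198% lower, and by DESeq2 0 of 8. At an unadjusted p under 0.05 there were 3 (CCT2, CCT3 and CCT7) by edgeR and 4 by DESeq2, where 12.1% and 8.86% of all transcripts lay. Without siLARP1 input replicate 1 the CCT8 change was 0.06 ± 0.18, so that 7 of 8 were then below 0.

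The ratio of pulldown to input after LARP1 siRNA rests on 1 pulldown library and has no test. CCT7 was at 113 CPM in it and CCT8 at 168. The difference of log2 ratios, siLARP1 minus siControl, was highest for CCT7 (0.17) and lowest for CCT8 (-0.18). The other 6 lay between -0.04 and 0.07, and the median was 0.05 over the 8 subunits and -0.05 over all transcripts. The 2 siControl pulldowns of CCT7 alone differed by more than that, with log2 ratios of -2.62 and -2.93.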

How the data were processed

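Ribosome profiling, RNA-seq and pulldown libraries of 1 cell line were analysed (31 libraries). The authors deposited raw counts per Ensembl transcript for each library, with no scaling, and a coding length per transcript. CASAVA 1.8, STAR 2.7.0a and hg38 are named, per the submitters' processing notes; the counting rule is not given in the sources used here. From 94734 transcripts with counts, identical count vectors were collapsed (77343) and 1 transcript per locus kept (35499), dropping neighbours within 10 rows whose log2 CPM (pseudocount 0.5) correlated at 0.9 or more. This reduction is approximate. Each comparison was fitted on all transcripts with edgeR 4.0.16 in R 4.3.3: TMM, filterByExpr (minimum count 10, minimum total 15), quasi-likelihood tests, Benjamini-Hochberg adjustment, calls at adjusted p under 0.05. The same steps were also run on simulated counts without effects of culture or experiment. The outcome is not reported here. Alternatives were DESeq2 1.42.0, its size factors in edgeR, no filter, all distinct transcripts, 1 transcript per locus by total count alone, fits of the compared groups only, a replicate block, a dose score for PP242, and leaving out each library. Fits of fewer libraries pool the spread, so a lone library is assumed to vary like the other groups.

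The members, lists and comparisons were chosen with earlier results of these data known. All 8 subunits are named in each comparison, and the 2 transcripts most like them in profiling. Lists of cochaperones and substrates, and of markers of other cell types, were fixed but not applied, because no table used here pairs the transcript IDs with symbols. Whether same-numbered libraries deviate together was checked from the correlation of their deviations: it was -0.11 between the RNA-seq groups, -0.18 to -0.01 between the DMSO groups, -0.17 to 0.13 in the pulldown without siRNA, and -0.14 to 0.59 with it, highest between siControl inputs and pulldowns. With 2 numbers per group, and no label that a number marks a shared culture, this does not settle pairing. The main fits have no block, and fits with a replicate block are given under the processing alternatives.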

Additional observations from a re-analysis of the deposited data

Results flagged for a closer look

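Without siRNA, the ratio of pulldown to input differed between the 2 tagged lines for all 8 subunits, by a test of the difference itself (log2 ratio with SBP-eIF4A1 minus that with SBP-eIF4A2). The tagged protein and the cell line differ together there and cannot be told apart. The values were 0.82 for TCP1, 0.63 for CCT6A, 0.59 for CCT4, 0.53 for CCT8, 0.50 for CCT2, 0.44 for CCT3, 0.41 for CCT5 and 0.32 for CCT7. Of 26600 transcripts, 10.4% were called higher and 5.3% lower. The CCT7 call was lost without input replicate 2 of either tagged line.

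The SBP-eIF4A1 ratio also differed between the experiment with control siRNA and the one without siRNA, by a test of that difference, for 7 subunits. The values, siControl minus no siRNA, were -1.51 for TCP1, -1.17 for CCT5, -1.09 for CCT7, -0.92 for CCT4, -0.76 for CCT8, -0.56 for CCT6A and -0.47 for CCT3. Such calls were common, with 23.8% of 26115 transcripts lower and 26.4% higher. The CCT3 call was lost without replicate 1 of the input without siRNA. No group held enough libraries to test for a single library that stands apart.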

How the results depend on the processing

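Of the calls of single subunits, 393 of 411 were kept in settings other than leaving out 1 library, and 281 of 320 when 1 library was left out. The former settings include fits of the compared groups only, which use fewer libraries. They also include members taken by total count alone, which gave the same transcripts, so agreement there was nearly fixed in advance. No called change reversed. Of the changes that were not called, 14 of 541 changed sign in the former settings and 54 of 448 in the latter, while 10 and 3 became called. The 3 were CCT2 in translation efficiency without naive or without EIF4A1 KO DMSO replicate 2, and CCT2 in siControl minus no siRNA without siControl pulldown replicate 2 (-0.41, adjusted p = 0.0173). The 10 were changes of TCP1, CCT4, CCT6A and CCT7 in DMSO footprints or in the inputs of the tagged lines. Some counts of subunits called moved. In DMSO footprints, the count for EIF4A1 KO against naive went from 1 to 0 with DESeq2, that for EIF4A2 KO against naive from 0 to 1 with all distinct transcripts, and that between the knockouts from 1 to 2 without a filter on low counts. With the dose score 0 subunits were called in each of the 3 genotypes, with median slopes of -0.065 (naive), -0.12 (EIF4A1 KO) and -0.10 (EIF4A2 KO) per step. The median difference between SBP-eIF4A1 and SBP-eIF4A2 ratios was 0.48 with DESeq2-type size factors and 0.48 with DESeq2. Fitting the 4 inputs without siRNA alone raised the count for the tagged lines' inputs from 2 to 4, with no share of all transcripts given for that fit.

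Leaving out 1 library at a time gave 0 to 1 subunits called for DMSO footprints in EIF4A1 KO against naive, 0 to 1 between the knockouts, 1 to 2 for translation efficiency, 0 to 4 for PP242 in naive cells, 2 to 4 for PP242 in EIF4A2 KO cells, and 1 to 1 for the inputs of the tagged lines. The medians ranged from -0.0068 to 0.070 for translation efficiency, from -0.12 to -0.044 for the PP242 difference between EIF4A1 KO and naive cells and from -0.078 to 0.011 for that between the knockouts. They ranged from -1.92 to -1.84 for the SBP-eIF4A2 ratio, from -2.09 to -1.95 for the siControl ratio, from -0.92 to -0.75 for siControl minus no siRNA, from -0.40 to -0.24 for siLARP1 inputs and from -0.0071 to 0.12 for the siLARP1 ratio minus the siControl ratio. Why these values moved was not tested.

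With the replicate number as a replicate block, the count of subunits called was 6 for RNA, 1, 0 and 1 for DMSO footprints, 2 for translation efficiency, 7 and 8 for the pulldowns without siRNA, 8 for their difference, 8 and 0 for siControl pulldown and siLARP1 input, and 7 for siControl minus no siRNA, as without the block. Only the inputs of the tagged lines moved, from 2 to 3. Transcripts called went from 9390 to 8999 for RNA. Crossed numbers, added after seeing the data, gave 6 subunits for RNA, 2 for DMSO footprints in EIF4A2 KO and 0 for siLARP1 inputs. With them the transcripts called rose as well, from 9390 to 9888, from 1596 to 2078 and from 138 to 534. No replicate block was possible for PP242, whose libraries carry no number. Leaving out the only siLARP1 pulldown was not run. Taking members by total count alone gave the same transcripts.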

Other observations

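Over the 12 profiling libraries, the transcripts whose log2 CPM followed the mean of the 8 subunits most closely were ENST00000531120.6 (Pearson r = 0.98) and ENST00000524803.6 (r = 0.98), among 5794 abundant transcripts compared, as a description of libraries that share genotypes and treatment. No table used here pairs them with a gene. Each subunit was also compared with the mean of the other 7. CCT2 (r = 0.98) and CCT6A (r = 0.96) followed it most closely, then CCT7 (0.84), CCT3 (0.81), CCT8 (0.66), CCT5 (0.62) and CCT4 (0.62), and TCP1 least (0.46).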
